A study of Danio rerio with 2 samples.

Results

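The 42 genes described here are macrophage and neutrophil genes of the zebrafish (Danio rerio), measured in heart RNA of wild-type and kctd10 mutant animals. They were taken from a list of gene names, drawn up with earlier results of these libraries known. Of 45 symbols listed, 42 equalled a gene name in the authors' comparison table, out of 26126 genes counted, while spi1, mpeg1.1 and fcer1gl equalled none and were dropped. The study holds 1 RNA sequencing library of wild-type hearts and 1 of kctd10 -/- hearts, both of AB background and both taken at 48 hours post fertilization. kctd10 encodes an adaptor of the Cullin 3 ubiquitin ligase. The labels do not state how many hearts were pooled, how they were collected or what lesion the mutant allele carries. With 1 library per genotype there is no replicate check, so each ratio compares these libraries and not the genotypes.

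Macrophages and neutrophils are the first white blood cells of the fish embryo. Macrophages engulf dead cells and microbes and respond to the growth factors Csf1 and Il34 through the receptor Csf1r. Neutrophils carry granules loaded with enzymes such as myeloperoxidase and lysozyme, and respond to Csf3. Both arise under the transcription factor Pu.1, the product of the spi1 genes, move with an actin machinery built from leukocyte proteins, and kill microbes with an NADPH oxidase. At the stage sampled both cell types are already present in the embryo and can reach wounds and other tissues.

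The gene counts summed to 150001992 in the wild-type library and 139099775 in the mutant library, and the 42 genes together held 47744 and 77671 of these counts. Counts of heart muscle genes were high in both libraries, with 194884 and 252712 for the myosin light chain gene myl7. krt4, a keratin gene of the epidermis, had 4500426 and 2975239 counts, so RNA of a gene typical of another tissue was abundant in both libraries. The mutated gene itself had 8226 counts in the wild-type library and 19942 in the mutant library, a direction opposite to a loss of its transcript, and a mutation need not lower the amount of transcript. The genotypes are therefore those of the labels, unchecked by the counts. For each gene the ratio of mutant over wild type was taken after scaling the library sizes by TMM, and its 95% interval covers counting error only. A gene was rated if it had at least 10 counts over both libraries. It was called higher if its interval began above 1.5-fold, and lower if its interval ended below the inverse of that fold.

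Most of the listed macrophage and neutrophil genes were more abundant in the mutant library. The list was drawn up with earlier results of these libraries known, so its counts do not stand for all genes of these cells. Of the 41 rated genes, 24 (58.5%) were higher and 0 lower, and 17 met neither limit. Among all 24009 rated genes of the libraries, 6.03% were higher and 6.66% lower. Counts of the groups of members and of gene copies below are to be read against these 2 shares. Over the 41 genes the log2 ratio had a median of 1.06, against 0.00 over all genes, and ratios ran from 0.530 for tnfb and grn1 to 7.68 for marco. The 24 higher genes ran from 1.72-fold to 7.68-fold, and 19 of them had an interval wholly above 2-fold. Of the 17 others, 9 had an interval above no change, 3 below it and 5 holding it. Scaling to a list of cardiac sarcomere genes, which shifts every log2 ratio by −0.34, left 20 higher and made 2 lower, cxcr4b and tnfb. The shares of all genes under that scaling were not computed, so these 2 counts cannot be read against 6.03% and 6.66%. Any smaller positive log2 ratio given here turns negative under it. In bulk RNA, more cells of a type and more RNA per cell cannot be told apart.

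**Figure D1:**
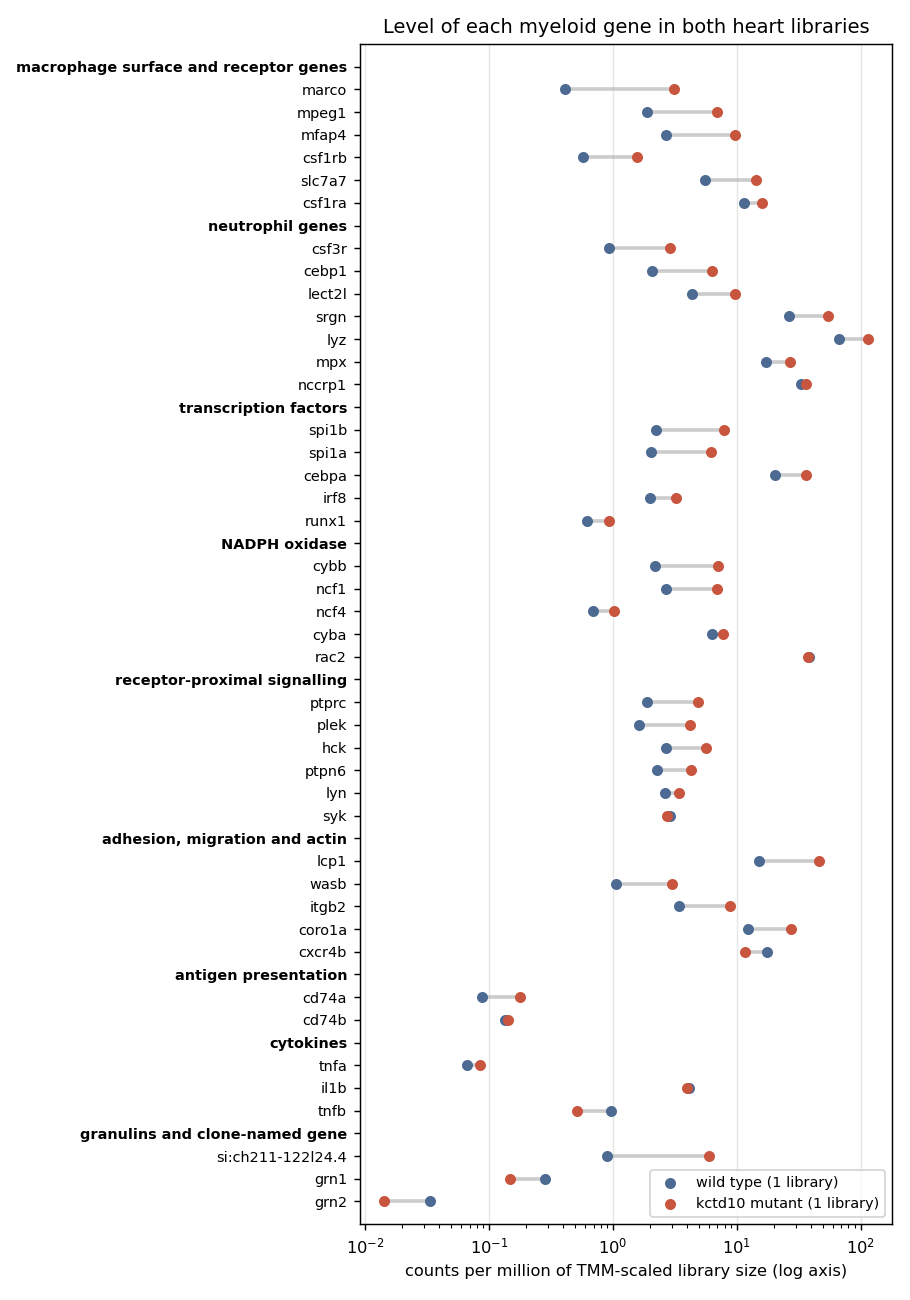
Level of each of the 42 genes in CPM, with TMM-scaled library sizes (log axis), with a blue point for the wild-type library and a red point for the kctd10 mutant library, grouped by role. The red point lies to the right of the blue one for 35 of the 41 rated genes, while for cxcr4b, tnfb, grn1 and grn2 it lies visibly to the left.

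**Figure D2:**
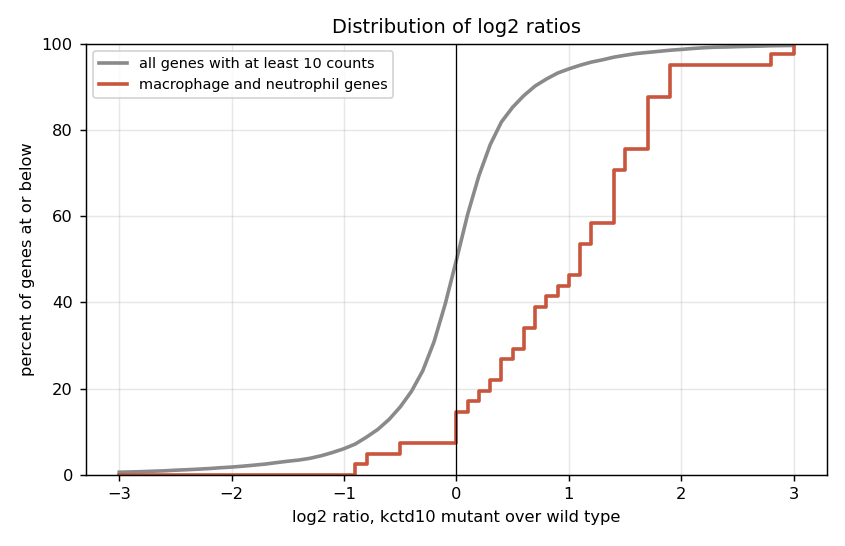
Percent of genes at or below each log2 ratio of mutant over wild type, for all 24009 genes with at least 10 counts (grey line) and for the 41 macrophage and neutrophil genes (red steps, read at intervals of 0.1). The grey line crosses 0 near its middle, and the red steps lie to the right of it with a median of 1.06.

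Among the 6 macrophage surface and receptor genes 5 were higher. marco, a scavenger receptor gene with which macrophages bind bacteria, had 61 counts in the wild-type library and 442 in the mutant library, a ratio of 7.68 (95% counting interval 5.86 to 10.2). mpeg1, the gene of the pore-forming protein perforin-2 whose promoter drives the usual zebrafish macrophage reporters, had 281 and 980 counts, a ratio of 3.69 (3.23 to 4.23). mfap4, a second macrophage marker gene of the zebrafish, had 400 and 1361 counts, a ratio of 3.60 (3.22 to 4.04). slc7a7, which encodes a subunit of an amino acid transporter needed by embryonic macrophages and microglia, had 819 and 2009 counts and was 2.60-fold higher (2.39 to 2.82). All of these lay well above the limit for a call.

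The paralogous receptor genes for Csf1 and Il34 differed from each other. csf1rb had 85 and 219 counts, a ratio of 2.73 (2.12 to 3.55). csf1ra had 1693 and 2232 counts, and its ratio of 1.40 (1.31 to 1.49) was not called. The ratio of csf1rb was 1.95 times that of csf1ra (95% counting interval 1.502 to 2.56), a quantity that no scaling of the libraries can move. In zebrafish csf1ra is used by yellow pigment cells as well as by macrophages. marco in turn had a ratio 2.08 times that of mpeg1 (1.53 to 2.85). Of all gene pairs, 10 were compared in this way, chosen after their values were seen.

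Neutrophil genes were higher in 5 of 7 cases. Among these 7, nccrp1 and the granule enzyme genes mpx and lyz lay closest to no change. csf3r, the receptor gene for the neutrophil growth factor Csf3, had 138 and 407 counts, a ratio of 3.12 (2.57 to 3.82). cebp1, a transcription factor gene of maturing zebrafish granulocytes, had 306 and 890 counts, a ratio of 3.08 (2.70 to 3.52). lect2l, related to a leukocyte chemotaxin, had 652 and 1367 counts and was 2.22-fold higher (2.02 to 2.44). srgn encodes serglycin, the proteoglycan that packs granule contents, and had 3907 and 7664 counts, 2.08-fold more (1.999 to 2.16). The lysozyme gene lyz had 9957 and 16204 counts, at a ratio of 1.72 (1.68 to 1.77).

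The myeloperoxidase gene mpx and nccrp1 were not called. mpx, the enzyme gene used most to mark neutrophils in the fish, had 2560 and 3790 counts, and its ratio of 1.57 (1.49 to 1.65) had a lower bound just under 1.5. nccrp1, named after a receptor of cytotoxic cells, had 4918 and 5098 counts, at a ratio of 1.098 (1.06 to 1.14). The ratio of mpx was 0.910 times that of lyz (0.860 to 0.963), so both enzyme genes lay close together. The ratio of csf3r was 1.99 times that of mpx (1.63 to 2.45), and that of the macrophage gene mpeg1 was 2.36 times that of mpx (2.04 to 2.72). The median log2 ratio was 1.65 over the 6 macrophage genes and 1.06 over the 7 neutrophil genes, and both groups overlapped, from 0.48 to 2.93 and from 0.14 to 1.64.

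All 5 transcription factor genes had ratios above 1, and 3 were higher. The Pu.1 genes spi1b and spi1a, which set the myeloid fate, moved alike. spi1b had 335 and 1110 counts, a ratio of 3.51 (3.104 to 3.98). spi1a had 305 and 876 counts, at a ratio of 3.04 (2.67 to 3.48). The ratio of spi1b was 1.15 times that of spi1a, with an interval of 0.961 to 1.38 that holds no difference. cebpa, needed for granulocyte formation and also used in liver and other tissues, had 3044 and 5140 counts and was 1.79-fold higher (1.71 to 1.87). irf8, which favours macrophages over neutrophils, had 295 and 452 counts, and its ratio of 1.62 (1.40 to 1.89) was not called. runx1, a gene of blood stem cell formation, had 92 and 131 counts, a ratio of 1.51 (1.15 to 1.99).

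**Figure D3:**
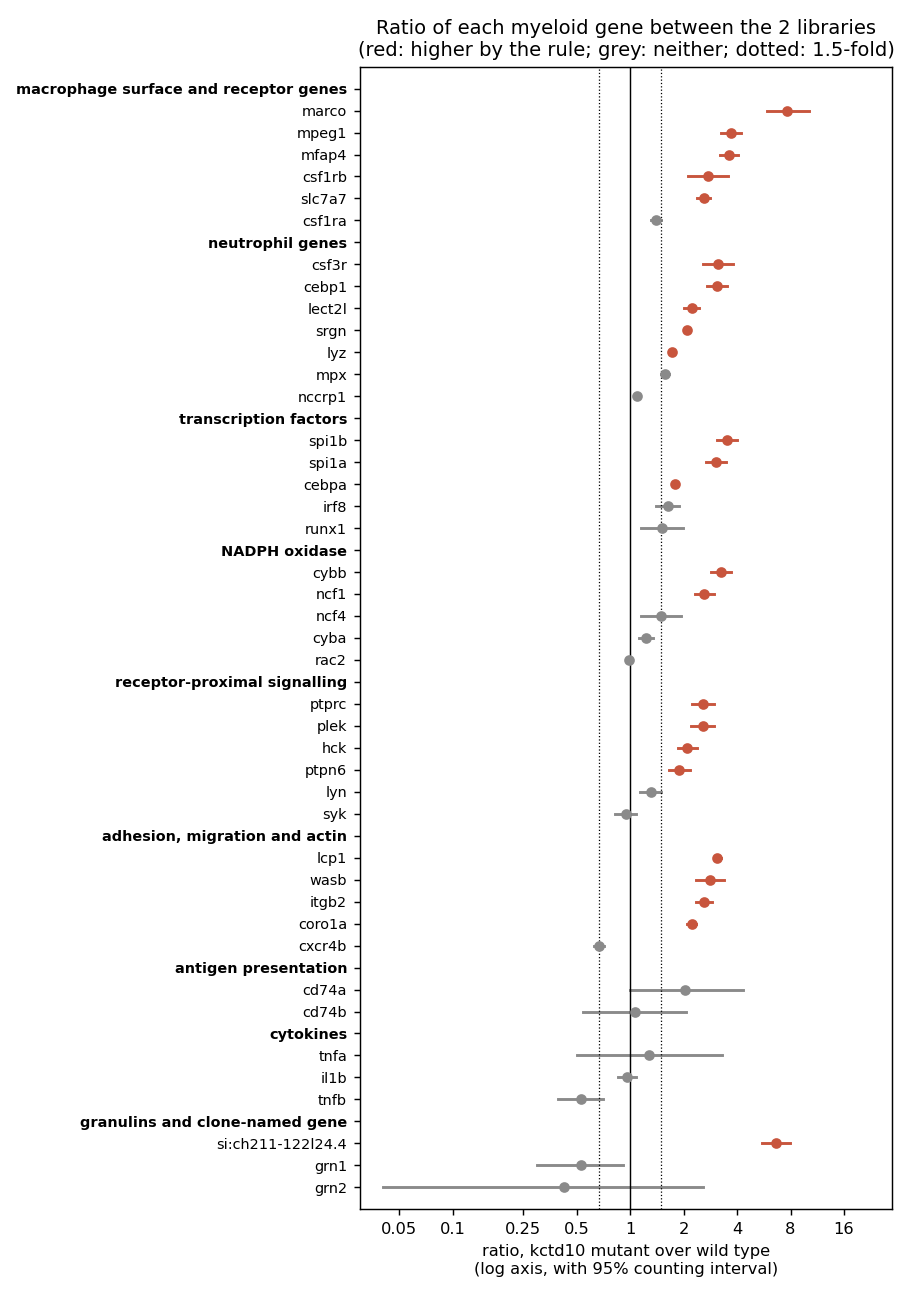
Ratio of mutant over wild type for each of the 42 genes on a log axis, with a bar for the 95% counting interval, grouped by role. Red genes were higher by the rule, grey genes were not called, and the dotted lines mark 1.5-fold in either direction, with marco at 7.68 as the highest point.

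The subunits of the phagocyte NADPH oxidase did not move together. cybb, which encodes the catalytic membrane subunit, had 324 and 992 counts, a ratio of 3.24 (2.86 to 3.69). ncf1, the gene of the cytosolic organizer subunit, had 397 and 982 counts, a ratio of 2.62 (2.33 to 2.95). ncf4, the gene of a cytosolic subunit that binds a membrane lipid, had 103 and 145 counts, a ratio of 1.49 (1.15 to 1.94). cyba, the membrane partner of cybb and of other oxidases outside leukocytes, had 949 and 1097 counts, at a ratio of 1.22 (1.12 to 1.34). The GTPase gene rac2 had 5682 and 5275 counts, a ratio of 0.983 (0.947 to 1.02). cybb and ncf1 were called higher and the other 3 were not. The ratio of cybb was 2.65 times that of cyba (2.27 to 3.096) and 2.17 times that of ncf4 (1.62 to 2.91).

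Receptor-proximal signalling genes were higher in 4 of 6 cases. ptprc, the gene of the leukocyte common antigen, a receptor phosphatase, had 280 and 679 counts, a ratio of 2.57 (2.23 to 2.96). plek, which encodes the kinase substrate pleckstrin, had 244 and 589 counts, at a ratio of 2.56 (2.199 to 2.98). The myeloid Src-family kinase gene hck had 399 and 789 counts and was 2.09-fold higher (1.85 to 2.37). ptpn6, the gene of an inhibitory phosphatase of blood cells, had 341 and 607 counts and was 1.89-fold higher (1.65 to 2.16). A further Src-family kinase gene, lyn, had 392 and 484 counts, and its ratio of 1.31 (1.14 to 1.498) was not called. The ratio of hck was 1.602 times that of lyn (1.33 to 1.92). syk, a kinase gene that acts below receptors with activating motifs, had 429 and 382 counts, a ratio of 0.943 (0.820 to 1.09), an interval that holds no change.

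Of 5 genes of adhesion, migration and the actin cortex, 4 were higher and cxcr4b had a ratio below 1. lcp1, the gene of the leukocyte actin bundler L-plastin, had 2235 and 6536 counts, a ratio of 3.098 (2.95 to 3.25). wasb, the zebrafish gene for the Wiskott-Aldrich protein that starts actin branching, had 159 and 422 counts, a ratio of 2.81 (2.34 to 3.40). itgb2, the beta chain gene of the leukocyte integrins, had 506 and 1247 counts, a ratio of 2.61 (2.35 to 2.90). coro1a, which encodes an actin-binding coronin of blood cells, had 1847 and 3877 counts, a ratio of 2.22 (2.103 to 2.35). cxcr4b, the receptor gene for the chemokine Cxcl12, had 2626 and 1651 counts, a ratio of 0.666 (0.626 to 0.709) that was not called. In zebrafish cxcr4b is also expressed in the migrating lateral line and in neural tissue.

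Genes of antigen presentation and inflammatory cytokines were not called. cd74a, the gene of an invariant chain that guides class II molecules, had 13 and 25 counts, a ratio of 2.04 (1.004 to 4.34). Its paralogue cd74b had 20 in each library, and at this depth neither gene could be told from a change of 1.5-fold. il1b, the gene of the cytokine interleukin-1 beta, had 615 and 558 counts, a ratio of 0.961 (0.856 to 1.08). tnfa had 10 and 12 counts, and its interval of 0.503 to 3.28 was wide. tnfb, the gene of a second tumour necrosis factor, had 144 and 72 counts, at a ratio of 0.530 (0.393 to 0.708). The highest ratio among the 3 cytokine genes was that of tnfa, at 1.27.

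The gene si:ch211-122l24.4, which a current name table calls ccl34a.4, a CC-type chemokine, had 134 and 835 counts, a ratio of 6.60 (5.49 to 7.98). A second identifier with the same clone name had 139 and 738 counts, a ratio of 5.62 (4.69 to 6.79), so both rows of this clone name were higher. The current name table gives no name for that second identifier, and reads shared between both rows were not tested. Second identifiers also stood for ptpn6 (248 and 429 counts, a ratio of 1.83) and runx1 (72 and 103 counts, a ratio of 1.52). The granulin genes grn1 and grn2 were scarce, with 42 and 21 counts for grn1 and 5 and 2 for grn2. The interval of grn1 was 0.298 to 0.915, and grn2, with fewer than 10 counts, was not rated.

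Several of these genes have close copies, whose reads may be shared or split by the authors' counting. The mfap4 family had 13 rows, of which 12 had at least 10 counts and 9 were higher, from 3.24-fold to 6.80-fold. The family summed to 1438 counts in the wild-type library and 5302 in the mutant library, a ratio of 3.91. A more counted copy of mpeg1 had 1612 and 2674 counts, a ratio of 1.76 (1.65 to 1.87), so the ratio of mpeg1 was 2.102 times that of its copy (1.81 to 2.44). Both copies were higher, and a further copy had 2 and 0 counts. The granulin family was dominated by grnb, with 4224 and 4440 counts and a ratio of 1.11 (1.07 to 1.16), and grna had 223 and 326 counts. None of 3 granulin genes with at least 10 counts was called.

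**Figure D4:**
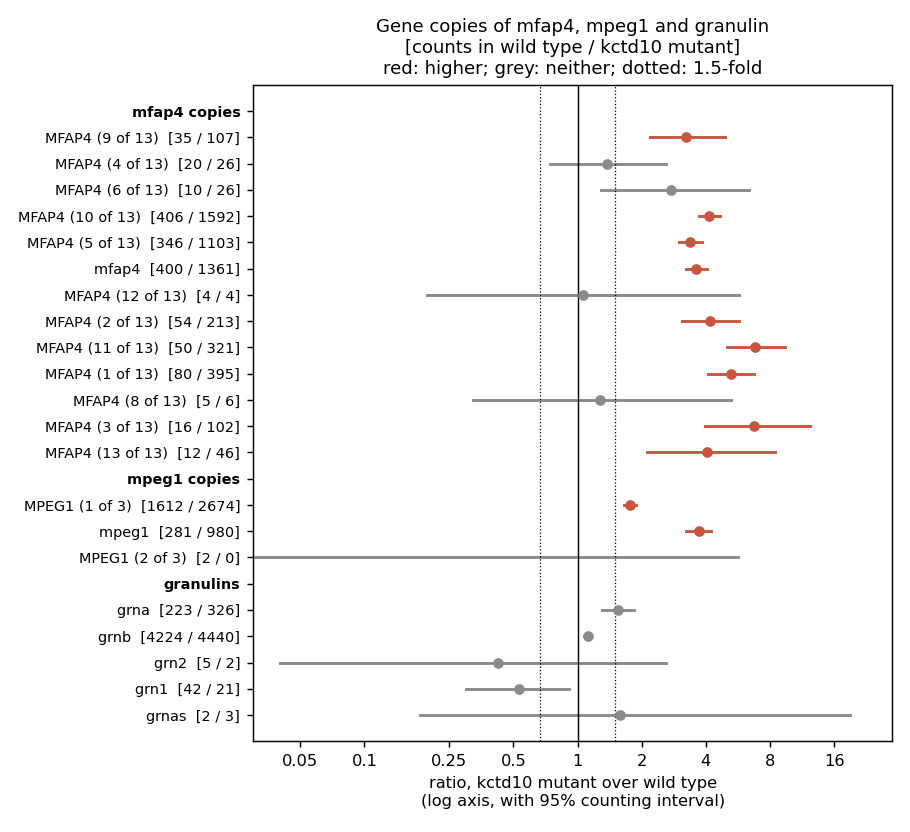
Ratio of mutant over wild type on a log axis, with bars for 95% counting intervals, for the rows of the mfap4, mpeg1 and granulin families, with counts in wild type and mutant beside each name. Red rows were higher by the rule, and the row of mpeg1 without counts in the mutant library has an interval that runs off the left edge and no point.

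The authors' own comparisons were made on the same libraries. With 1 library per genotype, their adjusted p-values cannot measure the spread between libraries of the same genotype. In the authors' deposited table of Ensembl genes, which used DESeq on 1 library per genotype, 7 of the 42 genes had an adjusted p under 0.05, all with a fold above 1. That table holds 0.716% of all its 26126 genes in that class. No member had an adjusted p under 0.05 with a fold below 1 in the authors' deposited table, a class that holds 0.976% of all genes. In the authors' deposited table the adjusted p was 0.000171 for si:ch211-122l24.4, 0.00145 for marco, 0.00771 for lcp1, 0.0102 for mfap4, 0.0164 for mpeg1, 0.0189 for spi1b and 0.0454 for cybb. The same deposited table gave an adjusted p of 0.845 for lyz and 1 for mpx. A second table by the authors, on UniGene clusters, holds 29 of the 42 genes with 1 cluster each. Of these 29, 19 had a fold above 1.5 in the authors' deposited UniGene table, where 8.39% of 22734 clusters did. Its folds lay within 10% of the ratios given here for 26 of the 29. The exceptions were mfap4 with a deposited UniGene fold of 5.05, cybb with 2.72 and ncf4 with 1.1.

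Beyond these genes, 7 lists of myeloid and blood genes were described, holding 195 genes that are not among the 42. Of 191 with at least 10 counts, 47 (24.6%) were higher and 17 (8.90%) lower, against 6.03% and 6.66% of all 24009 rated genes. Counts of the single lists below under the 1.5-fold rule with TMM scaling are to be read against the same 2 shares. For other scalings and fold limits the shares of all genes were not computed. The median log2 ratio of the 191 was 0.15, and it turned to −0.20 when the libraries were scaled to the cardiac sarcomere list. That scaling shifts every log2 ratio by −0.34, and the shares of all genes under it were not computed. Many genes of these lists act in other tissues too, and 4 of the 195 stand in more than 1 list.

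Of the growth factor and receptor genes of blood cells, 0 of 9 were higher and 2 lower, with a median of 0.05 that is −0.29 under the sarcomere scaling. The ligand genes of Csf1r were among them. csf1b had 508 and 273 counts. Its ratio of 0.569 (0.490 to 0.661) was lower by the rule but not when the libraries were scaled by their totals, which left 1 lower gene. csf1a had 1025 and 676 counts, a ratio of 0.699, and il34 had 455 and 600, a ratio of 1.40. kitb, a stem cell factor receptor gene, had 351 and 168 counts and a ratio of 0.507, and kita, the most counted gene of the list, a ratio of 1.02. Among 16 chemokine and chemokine receptor genes 5 were higher and 1 lower, with a median of 0.54, and 3 and 2 under the sarcomere scaling. The receptor genes cxcr3.2 (167 and 547 counts), cmklr1 (114 and 352 counts) and cxcr3.1 (24 and 66 counts) were 3.47-fold, 3.27-fold and 2.91-fold higher. The related cxcr3.3 had 416 and 413 counts, and its ratio of 1.05 (0.916 to 1.21) was not called. The thymus chemokine gene ccl25b was lower, with a ratio of 0.504, and cxcr7b, a scavenger receptor gene for Cxcl12, had a ratio of 1.37. cxcr1, a receptor gene of neutrophils, had 0 and 12 counts, at least 2.94-fold higher by its counting interval and 4.24-fold against a floor of 3 counts. The Cxcl12 genes cxcl12a and cxcl12b had ratios of 1.07 and 0.981.

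Of 35 further macrophage genes 11 were higher and 3 lower, with a median of 0.45, and 8 and 5 under the sarcomere scaling. The mannose receptor gene mrc1b had 169 and 1034 counts, at a ratio of 6.48 (5.50 to 7.67). Its more counted paralogue mrc1a had 1605 and 1332 counts, and its ratio of 0.879 (0.817 to 0.946) was not called. The lysosomal protease gene ctssb.1 had 818 and 3609 counts, a ratio of 4.67, and the receptor gene havcr1 had 118 and 487, a ratio of 4.37. Lower genes were gpnmb, which pigment cells also express (6091 and 2081 counts, a ratio of 0.362), and hpgd (2063 and 1049 counts, a ratio of 0.539). The third, spi2, had 11 and 0 counts. apoeb, an apolipoprotein gene of microglia and of the yolk, had 108178 and 183735 counts and was 1.80-fold higher. Of 25 further neutrophil genes 12 were higher and 1 lower, with a median of 0.48. The same list had 3 higher and 2 lower under the sarcomere scaling, and 3 higher with a fold limit of 2. The leukotriene receptor gene ltb4r (23 and 104 counts) was 4.79-fold higher, and the protease gene mmp25b (476 and 1265 counts) 2.82-fold. The lower gene padi2 had 28389 and 16010 counts, a ratio of 0.597, and the most counted gene, tcnbb, a ratio of 0.920.

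Of 38 genes of phagocyte signalling and the actin machinery 13 were higher and 0 lower, with a median of 0.38, and 11 and 3 under the sarcomere scaling. The adaptor gene lcp2a had 101 and 368 counts, a ratio of 3.86 (3.09 to 4.86). arhgap15, a regulator gene of Rac, had 60 and 194 counts, a ratio of 3.43, and the tetraspanin gene cd53 had 155 and 495, a ratio of 3.38. rac1a, which most cells use, had a ratio of 1.198. Of 36 inflammatory mediator genes 3 were higher and 6 lower, with a median of −0.06. Under the sarcomere scaling 1 was higher and 10 lower, with a median of −0.40, and with a fold limit of 2 there were 1 and 3. tgfb1b (330 and 872 counts), irak3 (115 and 216) and caspa (1217 and 2149) were 2.80-fold, 1.99-fold and 1.87-fold higher. The prostaglandin synthase genes ptgs2a and ptgs2b fell from 24532 to 6035 and from 1997 to 652 counts, ratios of 0.261 and 0.346, and nfkbiaa, an inhibitor gene of the NF-kappaB pathway, had a ratio of 0.439.

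Of 36 genes of blood lineage regulators 5 were higher and 4 lower, with a median of −0.13. Scaled to the cardiac sarcomere list, which shifts every gene toward lower, 1 was higher and 11 lower, with a median of −0.48. stat3 (5553 and 11762 counts) was 2.24-fold higher, ikzf1, a gene of white cell precursors (189 and 356 counts), 1.995-fold, and the kinase gene jak1 1.92-fold. cebpb (18405 and 8235 counts) had a ratio of 0.474, irf1b a ratio of 0.497 and bcl11aa a ratio of 0.594, all lower. meis1, the most counted gene of that list, had a ratio of 0.757.

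**Figure D5:**
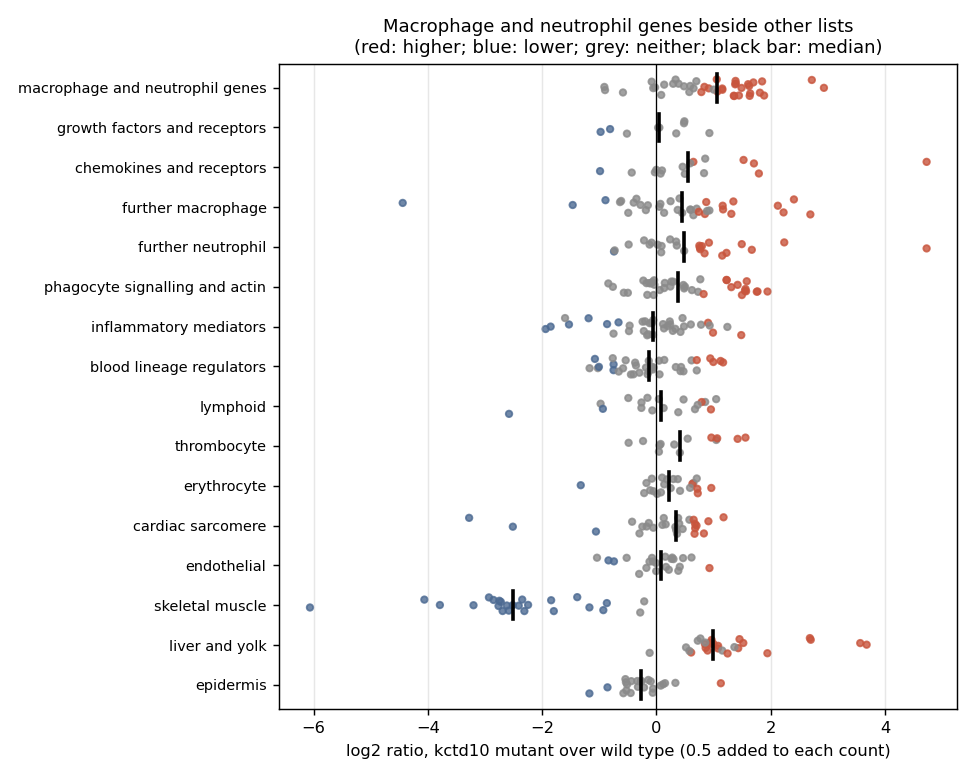
Log2 ratio of mutant over wild type for each gene with at least 10 counts, in the macrophage and neutrophil genes, in 7 further lists of blood genes and in 8 lists of markers of other cells and tissues, with the median of each list as a black bar. Red genes were higher and blue genes lower by the rule, and the bar of the macrophage and neutrophil genes lies at 1.06, beside 0.997 for liver and yolk and −2.51 for skeletal muscle.

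Markers of some other cells and tissues also moved between the libraries, and their part in the ratios of the myeloid genes was not tested. Of all rated genes, 6.03% were higher and 6.66% lower. Of 27 liver and yolk genes 19 were higher, at a median log2 ratio of 0.997, and their summed level was 6607 CPM in the wild-type library and 12616 in the mutant library. Of 25 skeletal muscle genes 23 were lower, at a median of −2.51, from 4680 to 1652 CPM in sum. The summed level of the cardiac sarcomere list was 12835 and 17785 CPM, with 8 of 27 genes higher, 3 lower and a median of 0.34. Epidermal genes summed to 52709 and 38636, with 1 of 23 higher, 2 lower and a median of −0.28. Endothelial genes summed to 678 and 804, with 1 of 22 higher, 2 lower and a median of 0.07.

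The other blood lineages moved less in their medians than the 41 myeloid genes, which were chosen with earlier results known. The further myeloid lists together had a median log2 ratio of 0.15, with 0.45 for further macrophage genes and 0.48 for further neutrophil genes. These medians lay among or close to those of the other blood lineages, and no difference between lists was tested. Of 22 erythrocyte genes 4 were higher and 1 lower, with a median of 0.22 and sums of 3549 and 3727 CPM. Of 13 thrombocyte genes 4 were higher and 0 lower, with a median of 0.41 and sums of 320 and 292 CPM. Among them fermt3b (86 and 218 counts, a ratio of 2.69) also stands in the list of phagocyte signalling. Of 18 lymphoid genes with at least 10 counts 2 were higher and 2 lower, with a median of 0.08 and sums of 287 and 238 CPM. The lymphocyte kinase gene lck had 85 and 13 counts, at a ratio of 0.162 (0.0829 to 0.292), and bcl11ba a ratio of 0.522. The transcription factor genes tbx21 and pax5 were higher, with ratios of 1.94 and 1.73. tox, the most counted gene of the list, had a ratio of 0.833. itk and nitr1a were at 0 in the wild-type library, but had fewer than 10 counts over both libraries and were not rated. No gene of the liver and yolk, skeletal muscle, epidermal, endothelial, thrombocyte or erythrocyte lists was at 0 in either library. Of the cardiac sarcomere list myl4 was at 0 in the mutant library, with too few counts to be rated.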

How the data were processed

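Total RNA of hearts was isolated on RNeasy columns and sequenced from Illumina TruSeq libraries, per the labels' protocols. TopHat, DESeq and the build Zv9 are named, without versions, per the submitters' processing notes. The counting tool, annotation and strand use have no entry in the labels. Raw counts for each Ensembl gene are the authors' deposited values. The line that names no gene held 9.21% and 9.17% of all counts and stayed out. The deposited comparison of Ensembl genes holds a fold ratio with log2, p-value and adjusted p-value columns, and the deposited UniGene comparison holds a fold with its log2, per the file headers. The fold column of the latter is named OE over CON, and its heading names the mutant compared with wild type. A further 7 columns of numbers were not used.

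Library sizes were scaled by TMM over genes with at least 10 counts with edgeR 4.0.16 in R 4.3.3, giving 148672835 (wild type) and 140343348 (mutant). Exact Clopper-Pearson intervals at 95% came from both counts (scipy 1.17.1). Log2 ratios used 0.5 added to each count. Where a gene was at 0, its interval and call used the raw counts. A floor of 3 counts entered only the 4.24-fold value given for cxcr1. For the 41 rated genes the median half-width of the interval was 0.19 (log2). Amplified reads are not independent molecules. No test between genotypes was run. Ratios of ratios are odds ratios with exact conditional intervals.

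The members and lists were chosen with earlier results of these data known. Every member was named with its values. Of each further myeloid list and of the lymphoid list up to 3 higher and 3 lower genes with at least 50 counts, and its most counted gene, were named. The same rule was not carried through for the other 7 marker lists, which are given by counts, medians and sums. Genes named beyond it (the gene copies, krt4, myl7, myl4, fermt3b, csf1a, il34, cxcl12a, cxcl12b, cxcr1, spi2, itk and nitr1a) were chosen after their values were seen. The same holds for mrc1a, cxcr3.3 and wasa. Of 265 entries in the 7 further lists 210 matched a gene, by the name in the authors' table or else in a current table of names, which names 35 of the 42 members. The steps were tested on simulated counts of the 24009 genes, drawn with counting error only. That test could not check the calls against variation between libraries or amplified reads. Alternatives were scaling by library totals, by DESeq2 1.42.0 size factors, by upper quartiles and to the cardiac sarcomere list, other limits, members without copies, the mean, another pseudocount and the authors' folds. Promoter motifs were not searched.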

Additional observations from a re-analysis of the deposited data

How the results depend on the processing

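The 24 higher genes kept a ratio above 1 under every alternative that included them. No scaling tried could have changed that, since the lowest log2 ratio among them was 0.79, for lyz, and the largest shift was −0.34. The count of higher members ran from 19 with a fold limit of 2 to 28 with the authors' deposited folds, which carry no interval. Scaling to the cardiac sarcomere list, which shifts every log2 ratio by −0.34, left 20 higher (without cebpa, hck, lyz and ptpn6) and 2 lower members, cxcr4b and tnfb, and a median of 0.71. The count of lower members was also 2 (cxcr4b and tnfb) with the looser fold limit tried and 3 (these and grn1) with the authors' folds. Library totals added mpx to the higher genes. Over the further myeloid lists, 26 genes were higher and 36 lower under the sarcomere scaling, with a median of −0.20, 24 higher and 6 lower with a fold limit of 2, 62 higher and 36 lower with the looser limit, and 65 higher and 29 lower with the authors' folds. The cause of the last change was not tested. Shares of all genes higher and lower were computed only for the 1.5-fold rule with TMM scaling. The counts under every alternative, of members and of further lists, lack that reference. The lower genes among growth factors and receptors numbered 1 with library totals or a wider interval, csf1b being lost, and 0 with a fold limit of 2. With that fold limit further macrophage genes numbered 7 higher and 2 lower, and blood lineage regulators 1 and 1. Chemokine and chemokine receptor genes then numbered 3 higher and 0 lower, and phagocyte signalling and actin genes 10 and 0. No paired analysis was possible because each genotype has 1 library, and no library could be left out. Genes with few counts, such as tnfa, cd74a and cd74b, are limited by depth.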
